A study of Danio rerio with 16 samples.

Results

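Immediate early genes are switched on within minutes of a signal at the cell surface, without new protein synthesis, and most are switched off again within hours. Their products carry the signal onward: Fos, Jun and Atf3 proteins pair up as AP-1 type transcription factors, Egr1 and Nr4a1 bind DNA as a zinc finger protein and as an orphan nuclear receptor, and Dusp1 removes phosphate from the mitogen-activated protein kinases that started the response. In the mammalian ovary such genes are best known from the follicle cells around the oocyte, where gonadotropins induce them near ovulation. The immediate early set described here holds 10 zebrafish genes, taken from the tables by name: fosab, fosb, junba, junbb, atf3, egr1, nr4a1, ier2a, ier2b and dusp1. Of 29629 rows in the deposited tables, 12 belonged to these genes. The tables list 9 of the genes by symbol, and ier2b was found by its gene ID (100331484), which they name LOC100331484. Both egr1 and nr4a1 have a second row on an alternate scaffold.

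Each of 16 poly(A) RNA libraries came from a piece of adult wild-type zebrafish ovary, mostly with early-stage follicles, kept in medium at 28 °C for 6 h. In 4 libraries each, the medium held PNX-20 at 100 nM, A8535 at 5 µM, PT-91 at 5 µM, or dimethyl sulfoxide alone (Control). PNX-20 is the phoenixin peptide of zebrafish, a putative ligand of the orphan receptor SREB3, and A8535 and PT-91 are synthetic benzamide agonists of the related receptor SREB1. A8535 carries chlorines on its benzamide ring where PT-91 carries a methoxy and a trifluoromethyl group. The ovaries of a fish were cut in 5 sections, of which 4 went to 1 treatment each, so libraries of different groups can come from the same fish, and which ones do is not given. All values refer to a single time, and pieces of whole tissue were measured, so fewer cells of a type and less RNA per cell cannot be told apart.

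The libraries held 10233870 to 15104959 assigned reads. Of the 8 marker lists read, oocyte markers had the largest sums, with 8350 to 10600 normalised counts scaled to library size (CPM) in PNX-20 libraries, 5600 to 9170 CPM in A8535 libraries, 6420 to 11100 CPM in PT-91 libraries and 8330 to 10100 CPM in Control libraries. The linker histone gene h1m (mean 2590 CPM) and the egg envelope gene zp3a.1 (mean 2530 CPM) led that list. Mitochondrial share and stromal markers varied widely between libraries. Mitochondrial transcripts made up 0.435 to 1.57% of reads in PNX-20 libraries, 0.57 to 3.95% in A8535 libraries, 0.792 to 4.08% in PT-91 libraries and 0.19 to 1.3% in Control libraries. Summed markers of stromal fibroblasts ran to 26.3 to 94.0 CPM with PNX-20, 33.4 to 184 CPM with A8535, 33.9 to 99.2 CPM with PT-91 and 12.6 to 67.5 CPM in Control, and Control replicate 3 had the lowest value of both measures.

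All 10 genes were expressed after culture and passed the filter on low counts in every comparison. Per kilobase of annotated transcript, dusp1 was the most abundant at 90.8 ± 39.0 CPM per kb (mean ± SD, n = 16). The Jun genes followed, with junbb at 41.2 ± 16.7 and junba at 31.3 ± 14.3 CPM per kb, and then atf3 at 22.2 ± 8.72 and fosab at 19.3 ± 5.78 CPM per kb. The least abundant were ier2a at 12.1 ± 5.64, ier2b at 7.05 ± 2.59, egr1 at 6.46 ± 3.87, nr4a1 at 5.73 ± 4.56 and fosb at 4.95 ± 2.25 CPM per kb. In this order of levels, only the steps between dusp1 and junbb and between fosab and ier2a were larger than the SD of both neighbours. Within groups, the SD of log2 CPM ran between 0.45 for ier2b and 2.16 for nr4a1, with a median over the 10 genes of 0.63, beside 0.82 over all 19216 genes kept. Only nr4a1 stood near the top of that distribution, at the 97.2 percentile. The SD of log2 CPM depends on level, and the kept genes were not matched to the members by level. By mean CPM the members lay between the 41.8 percentile (ier2b) and the 96.0 percentile (dusp1) of the kept genes.

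No member passed the test in any of the 4 comparisons made after adjustment over all genes. The edgeR quasi-likelihood test, with Benjamini-Hochberg adjustment, called 0 of 10 members in PNX-20, A8535 or PT-91 against Control and in PT-91 against A8535. The background was the same, since this test called 0% of 17118, 17377, 17276 and 19216 genes in these 4 comparisons. DESeq2 called 19, 3, 34 and 2 genes in them and limma-voom 0 in each, none of them a member. Before adjustment, edgeR gave 0, 0, 1 and 0 members a p under 0.05, beside 2.51, 2.48, 6.81 and 2.26% of all genes. The gene was dusp1 with PT-91, where 5.33% of all genes were higher at that threshold. For no member did all 4 libraries of a treatment lie outside the range of its comparator group, which held for 1.66, 2, 2.73 and 1.22% of all genes.

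Taken by direction alone, log2 fold changes above 0 were found for 8 of 10 members in the PNX-20 libraries, 6 under A8535 and 5 under PT-91, beside 48.6, 46.4 and 50.2% of all genes. Of the 8 with PNX-20, nr4a1 (0.0015), ier2b (0.04), ier2a (0.08) and junbb (0.38) changed sign when certain single libraries were left out. In PT-91 against A8535, 6 of 10 were above 0, beside 47.5% of all genes. The members' median log2 fold change was 0.12 under PNX-20, 0.03 under A8535 and 0.06 under PT-91, against -0.02, -0.04 and 0.00 for all genes. For PT-91 against A8535 the median was 0.09, and -0.04 for all genes. The 3 comparisons with Control share the same 4 Control libraries, so like directions in them are not separate evidence. Intervals were wide: the median half-width of the 95% interval was 1.09, 1.02, 1.00 and 0.89 log2 units in the 4 comparisons. With 4 libraries each, a smaller difference in a typical member would leave 0 inside its interval. These intervals are not adjusted for the number of genes tested, so a larger difference could also go uncalled after adjustment. An example was dusp1 with PT-91, with an interval of 0.23 to 1.87 and an adjusted p of 0.712 in edgeR.

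**Figure D1:**
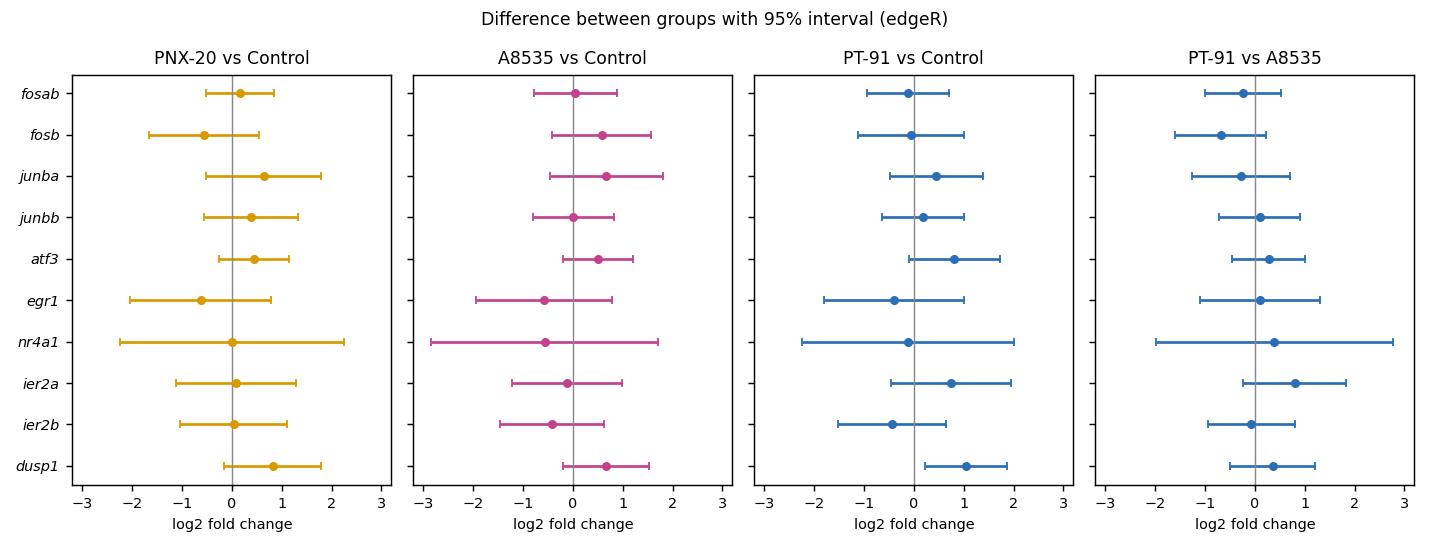
Points give the log2 fold change (x axis) of each of the 10 genes (rows) in 4 comparisons (panels), with bars for the 95% interval from edgeR. The interval lies wholly above 0 for a single gene and comparison, dusp1 in PT-91 against Control (0.23 to 1.87), and it is widest for nr4a1.

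dusp1, the feedback phosphatase of the set, lies on chromosome 14 (15760253 to 15763624, GRCz11). It read 309, 176, 311 and 265 CPM in the PT-91 libraries, against 198, 157, 68.2 and 102 CPM in Control. All PT-91 libraries but replicate 2 were above every Control library, and the lowest PT-91 library lay below the highest Control. Its log2 fold change was 1.05 (SE 0.37, 95% interval 0.23 to 1.87), with an unadjusted p of 0.0169 and an adjusted p of 0.712 in edgeR, and the exact two-sided permutation test gave p = 0.0571, where 0.0286 is the smallest that 4 libraries against 4 allow. Leaving out Control replicate 4 ended the unadjusted call (log2 fold change 0.94, adjusted p of 0.716 in edgeR and 0.0511 before adjustment), and the value ranged between 0.80 and 1.35 when each library was left out in turn. The smallest of these, 0.80, came without Control replicate 3, the library with the lowest dusp1 level of all 16.

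The same gene read 304, 140, 359 and 124 CPM with PNX-20 and 136, 163, 314 and 217 CPM with A8535. Both groups spanned a broad range, and 2 of 4 libraries in each were above every Control library. The log2 fold change was 0.82 for PNX-20 (SE 0.44, adjusted p = 0.998 in edgeR) and 0.66 for A8535 (SE 0.38, adjusted p = 0.999), with unadjusted p of 0.0901 and 0.115. Without Control replicate 1, the highest Control library, the values were 1.09 for PNX-20 and 0.92 for A8535, with edgeR p of 0.045 and 0.0477 before adjustment and an adjusted p of 1.0 for both. Without PNX-20 replicate 4 the PNX-20 value was 1.03, with an edgeR p of 0.0384 before adjustment and an adjusted p of 0.706. Other libraries weighed the opposite way, since the value was 0.53 without PNX-20 replicate 3 and, for A8535, 0.39 without A8535 replicate 3, with edgeR p of 0.265 and 0.341 before adjustment and an adjusted p of 1.0 and 0.999. Control replicate 3, the lowest, also had the lowest mitochondrial share (0.19%) and the lowest stromal marker sum (12.6 CPM). The same library was lowest for markers of follicle cells (250 CPM), smooth muscle (32.7 CPM), leukocytes (2.24 CPM) and erythrocytes (2.04 CPM). For oocyte, endothelial and epithelial markers it was not the lowest. The part of these measures in the dusp1 difference was not tested. PT-91 and A8535, given at the same dose and time, differed by 0.36 log2 units in dusp1 (95% interval -0.49 to 1.20, adjusted p = 0.967), an interval that also holds more than a doubling.

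**Figure D2:**
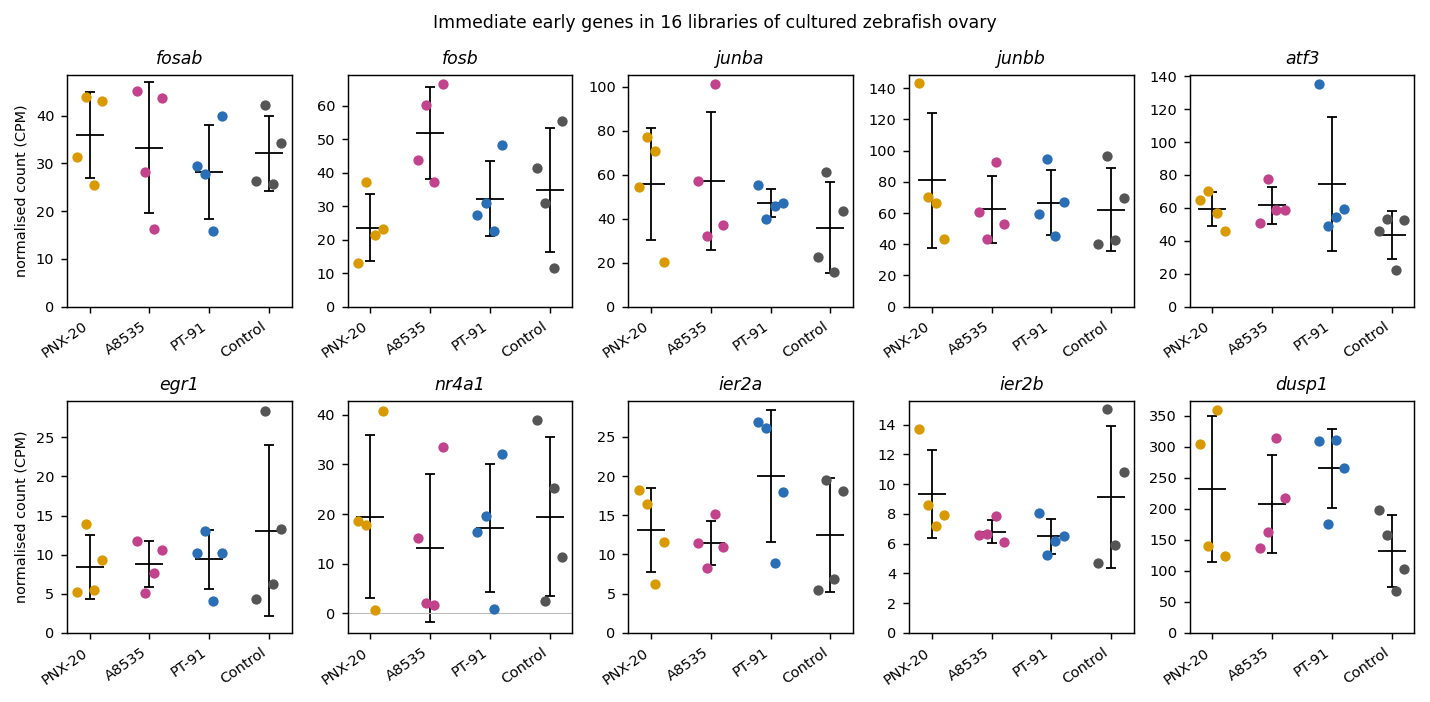
Normalised counts (CPM, y axis) of the 10 genes in each of 16 libraries, 4 per group, with the mean and SD of the group drawn as a bar and whiskers. The groups overlap in every panel. dusp1 read 176 to 311 CPM with PT-91 and 68.2 to 198 CPM in Control.

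The AP-1 subunits fosab and fosb encode the Fos partners of the Fos-Jun dimer. fosab (chromosome 20, 46552311 to 46554424, GRCz11) had 25.4 to 43.9 CPM with PNX-20, 16.2 to 45.1 CPM with A8535, 15.8 to 39.9 CPM with PT-91 and 25.7 to 42.3 CPM in Control. Its 4 groups overlapped, with lower minima under A8535 and PT-91, and its log2 fold changes against Control were 0.17, 0.05 and -0.12. fosb lies on chromosome 18 (36768849 to 36779598) and read 12.9, 37.2, 21.3 and 23.1 CPM with PNX-20, 43.7, 60.1, 37.2 and 66.6 CPM with A8535 and 27.4, 30.9, 22.4 and 48.2 CPM with PT-91, against 41.4, 30.9, 11.5 and 55.5 CPM in Control. The PNX-20 and PT-91 libraries all lay inside the Control range, which itself spanned 4.83-fold, and 2 of the A8535 libraries lay above it. Against Control the log2 fold change of fosb was -0.56 with PNX-20 (SE 0.50), 0.58 with A8535 (SE 0.44) and -0.05 with PT-91 (SE 0.48), with adjusted p of 0.998, 0.999 and 0.986 in edgeR.

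Between the 2 agonists, fosb had the second largest difference in size among the 10 genes. PT-91 averaged 32.2 ± 11.2 CPM and A8535 51.9 ± 13.7 CPM (SD, n = 4 each), a log2 difference of -0.69 (95% interval -1.60 to 0.22, adjusted p = 0.967 in edgeR). Only PT-91 replicate 4, at 48.2 CPM, lay within the A8535 range. Without it the log2 difference was -1.01, at an unadjusted p of 0.0482 and an adjusted p of 0.648.

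The Jun partners junba (chromosome 1, 51732979 to 51734540) and junbb (chromosome 3, 7654409 to 7656059) are the 2 zebrafish counterparts of the mammalian gene JUNB. junba read 54.3, 77.2, 70.8 and 20.4 CPM with PNX-20, 57.4, 32.1, 101 and 37.4 CPM with A8535 and 55.3, 40.0, 45.7 and 47.1 CPM with PT-91, against 22.8, 61.3, 15.6 and 43.5 CPM in Control. The PT-91 libraries were the tightest (CV 13.4%) and all lay inside the Control range, while PNX-20 and A8535 reached beyond it. Its log2 fold changes against Control were 0.64, 0.67 and 0.45, with adjusted p of 0.998, 0.999 and 0.798 in edgeR. junbb covered 43.5 to 143 CPM with PNX-20, 43.1 to 93.0 CPM with A8535, 45.4 to 94.5 CPM with PT-91 and 40.1 to 96.3 CPM in Control. A single library, PNX-20 replicate 1 at 143 CPM, lay above the Control range. That library also had the largest sum of epithelial markers, 1530 CPM against 41.6 to 487 CPM in the other 15. Most of this sum came from a single marker, epcam, which read 1480 CPM there. The part of epithelial cells in its junbb level was not tested.

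atf3, a stress-induced partner of Jun proteins that often represses transcription, lies on chromosome 20 (37794678 to 37800737). Its levels were 64.9, 70.0, 56.8 and 45.8 CPM with PNX-20, 50.8, 77.8, 58.7 and 58.8 CPM with A8535 and 135, 48.8, 54.5 and 59.2 CPM with PT-91, against 46.2, 53.1, 22.4 and 52.6 CPM in Control. In each treatment, 3 of 4 libraries were above every Control library. The log2 fold change was 0.45 with PNX-20 (SE 0.32, adjusted p = 0.998 in edgeR), 0.51 with A8535 (SE 0.32, adjusted p = 0.999) and 0.81 with PT-91 (SE 0.41, adjusted p = 0.718). These 3 values share the low Control replicate 3, and the PT-91 value also rests on replicate 1, the highest of the 16 libraries. Without Control replicate 3 they were 0.23 under PNX-20, 0.28 under A8535 and 0.56 under PT-91, and without PT-91 replicate 1 the PT-91 value was 0.32 (edgeR adjusted p = 0.961). In a single fit of all 16 libraries the PT-91 value was 0.77, at an unadjusted p of 0.039 and an adjusted p of 0.682. PT-91 and A8535 differed by 0.28 log2 units (95% interval -0.45 to 1.00), and by -0.18 without PT-91 replicate 1.

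egr1, a zinc finger factor of the growth factor response, is listed on chromosome 14 (21333720 to 21335961) and again on an alternate scaffold of the same build, and nr4a1, the receptor also called Nur77, on chromosome 23 (32151330 to 32157937) and likewise on an alternate scaffold. The 2 rows carry the same gene symbol, and their sequences were not compared. Where copies are alike the split of reads between them is uncertain, and the level of each row alone can mislead. The scaffold row took 0 to 58.3% of the egr1 reads (median 32.8% over 16 libraries) and 0 to 75.0% of the nr4a1 reads (median 5.88%). On the chromosome row, egr1 read 5.18, 13.9, 5.45 and 9.27 CPM with PNX-20, 11.7, 5.15, 7.64 and 10.6 CPM with A8535 and 10.2, 13.1, 4.07 and 10.1 CPM with PT-91, against 4.38, 28.4, 6.23 and 13.3 CPM in Control. Control replicate 2 was the highest of the 16 and took only 0.08 CPM on the scaffold row. All 3 treatments had log2 fold changes below 0 on the chromosome row, -0.63, -0.58 and -0.40, and with both rows summed these were -0.50, -0.24 and 0.01, none with an adjusted p under 0.888 in edgeR. Leaving out Control replicate 2 turned the direction of the chromosome row in each of them, to 0.10 under PNX-20, 0.14 under A8535 and 0.31 under PT-91.

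Among the members, nr4a1 had the broadest spread. It read 18.6, 17.8, 0.626 and 40.6 CPM with PNX-20, 15.2, 2.17, 1.73 and 33.5 CPM with A8535 and 16.3, 19.5, 0.83 and 32.1 CPM with PT-91, against 38.9, 2.40, 25.2 and 11.3 CPM in Control. The 16 libraries thus fell apart into 5 with at most 2.40 CPM and 11 with at least 11.3 CPM, and each group had libraries of both kinds. In each treatment, replicate 3 was the lowest and replicate 4 the highest of its group. Control differed, with 25.2 CPM in replicate 3 and 11.3 CPM in replicate 4. Whether same-numbered libraries share a fish is not given. In the 5 low libraries the scaffold row took 40.0 to 75.0% of the nr4a1 reads, and in the other 11 at most 38.2%. A low chromosome row raises this share by itself. In reads, the scaffold row held 20 to 59 in the 5 low libraries and 0 to 78 in the other 11. With the rows summed the 5 were still the lowest, at 2.34 to 5.26 CPM, and the others had 15.4 to 41.4 CPM. The log2 fold changes against Control were 0.00 under PNX-20, -0.57 under A8535 and -0.12 under PT-91, with intervals that reached at least 2.00 log2 units on one side. The scaffold row had the largest difference of any row, with 0.0819, 0, 1.51 and 0.248 CPM with PT-91 against 2.56, 1.60, 0.487 and 6.97 CPM in Control (log2 fold change -2.56, SE 1.20, adjusted p = 0.712), and with the rows summed it was -0.33.

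**Figure D3:**
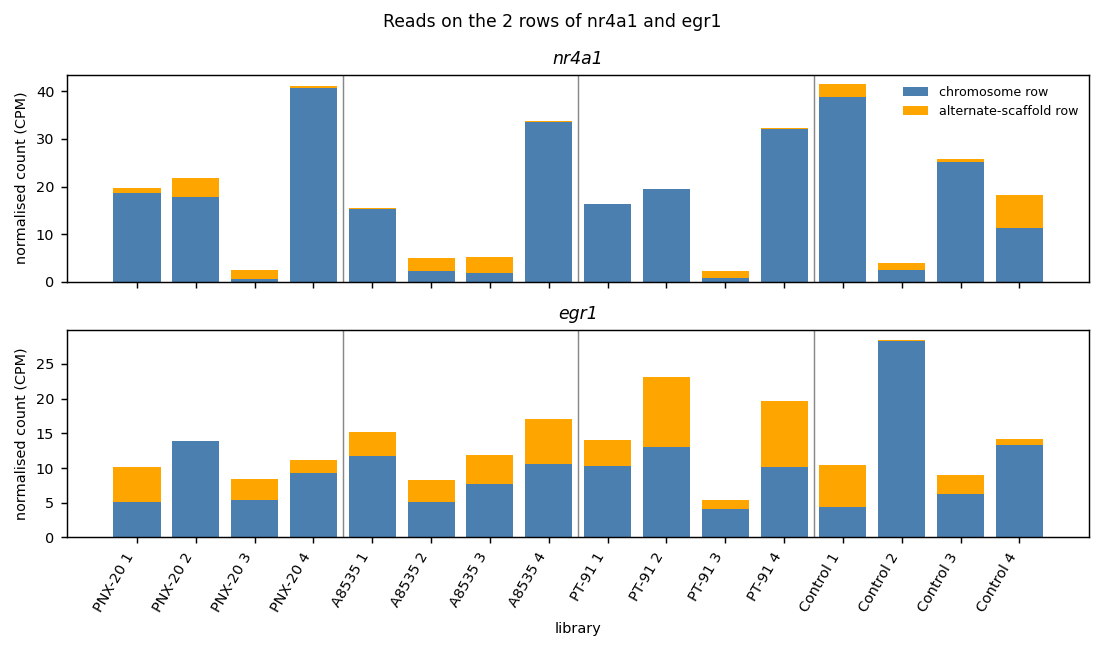
Normalised counts (CPM, y axis) of nr4a1 and egr1 in each of the 16 libraries (x axis), stacked by the chromosome row and the alternate-scaffold row of each gene. For nr4a1, 5 libraries stay at 2.34 to 5.26 CPM with both rows summed, and each group holds at least 1 of them.

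ier2a and ier2b encode small nuclear proteins of the immediate early response in zebrafish. ier2a (chromosome 3, 33761549 to 33762727) read 26.9, 26.2, 8.89 and 17.9 CPM with PT-91 and 11.5, 8.29, 15.1 and 10.9 CPM with A8535. All PT-91 libraries but replicate 3 were above every A8535 library, and the fourth lay near the lowest A8535 library. This was the largest difference between the 2 agonists, 0.80 log2 units (95% interval -0.24 to 1.84, unadjusted p = 0.121, adjusted p = 0.967 in edgeR). The PNX-20 libraries had 18.2, 16.4, 6.26 and 11.6 CPM, and Control 5.45, 19.5, 6.91 and 18.0 CPM. Against Control the log2 fold change was 0.75 with PT-91, -0.12 with A8535 and 0.08 with PNX-20. ier2b (chromosome 11, 31038408 to 31039533) covered 7.15 to 13.7 CPM with PNX-20, 6.10 to 7.88 CPM with A8535 and 5.21 to 8.03 CPM with PT-91, all inside the 4.71 to 15.1 CPM of Control. Its log2 fold changes were 0.04, -0.42 and -0.43 for PNX-20, A8535 and PT-91.

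Over the 10 genes, the 2 agonists were compared in this 1 pair, at matched dose and time, and no gene told them apart after adjustment. The log2 differences ran between -0.69 for fosb and 0.80 for ier2a, and the intervals of all 10 genes included 0. They were narrowest for fosab (-1.01 to 0.53) and atf3 (-0.45 to 1.00) and widest for nr4a1 (-1.99 to 2.77), so a 2-fold difference in one direction or both lies within the interval of 8 of the 10 genes, ier2b and junbb being the exceptions. PNX-20 was given at another dose, so its values stand beside those of the agonists without a test.

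Libraries of the same group differed widely from one another. For each library the mean over the 10 genes of log2 CPM, centred on each gene, lay between -0.46 and 0.36 with PNX-20, -0.36 and 0.29 with A8535, -0.64 and 0.40 with PT-91 and -0.69 and 0.25 in Control. The lowest was Control replicate 3, which had the lowest level of all 16 for 4 of the 10 genes and was above the gene's mean only for nr4a1. PT-91 replicate 3 followed at -0.64, with the lowest level of 2 genes. At the other end, PT-91 replicates 1 and 4 and PNX-20 replicate 2 had means of 0.40, 0.39 and 0.36.

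**Figure D4:**
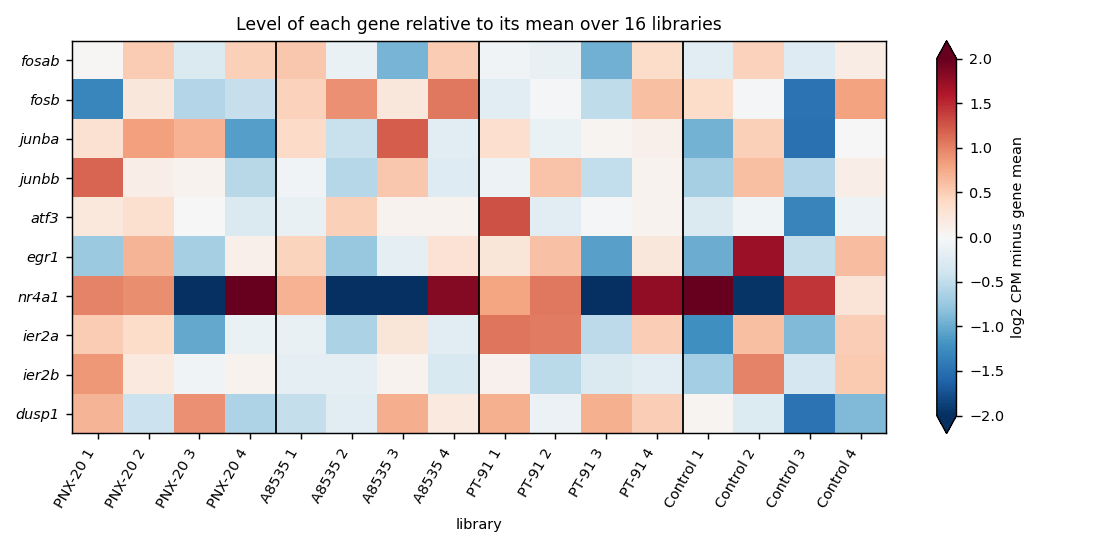
Colour gives log2 CPM minus the gene's mean over 16 libraries, for the 10 genes (rows) in each library (columns, in groups of 4), with colours cut at 2 in either direction. Blue runs down most of the column of Control replicate 3, and only the nr4a1 row exceeds the colour scale.

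Members were partly high in the same libraries. Of 45 pairs, 34 had a positive Pearson r of log2 CPM over the 16 libraries, with a median of 0.25 (0.22 after centring within groups). The share of positive pairs among all genes was not computed, so whether the members were more alike than other genes was not tested. Permutation tests of Pearson's r gave an unadjusted p under 0.05 for 10 pairs, among them the negative pair of junba and nr4a1. An adjusted p under 0.05 was found for 0 pairs, in Pearson's r and also in Spearman's rho, and libraries cut from one fish would not be independent. The closest pair was ier2a and junbb, with r = 0.67 (permutation p = 0.00463, adjusted p = 0.0653) and rho = 0.73 (permutation p = 0.00189, adjusted p = 0.0775). Its r was 0.70 without the 2 libraries farthest from the median of ier2a and 0.74 within groups. egr1 and ier2a (r = 0.67, rho = 0.64), junba and junbb (r = 0.66, rho = 0.68) and fosab and egr1 (r = 0.64, rho = 0.67) held above 0.56 without the 2 farthest libraries, each with an adjusted permutation p of 0.0653 for r. ier2b and junbb (r = 0.65, rho = 0.58) fell under this, with r = 0.32. The relation of atf3 and dusp1 (r = 0.60, rho = 0.50, adjusted permutation p = 0.0953 for r) rested on such libraries, since r was 0.20 without them.

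The lowest r with the rest were those of dusp1 and nr4a1. Against the mean of the other 9 genes, r was -0.07 for dusp1 and -0.08 for nr4a1, and between 0.20 for fosb and 0.73 for ier2a for the other 8. With nr4a1 left out of the mean, r was 0.17 for dusp1, 0.18 for fosb, 0.23 for fosab and between 0.47 and 0.69 for the remaining 6 genes. nr4a1 itself had its highest r with fosab (r = 0.58, rho = 0.41, adjusted permutation p = 0.112 for r), which was 0.27 without the 2 farthest libraries. dusp1 had negative r with fosab (-0.40), egr1 (-0.33) and nr4a1 (-0.41), and positive r with atf3 and junba (0.58). Without the 2 farthest libraries its r was -0.15 with fosab, -0.25 with egr1, -0.23 with nr4a1 and 0.25 with junba. The lowest of all 45 pairs was junba with nr4a1 (r = -0.50, rho = -0.61, adjusted permutation p = 0.21 for r). All 16 points share their scaling with the 10 genes, and 4 come from each group.

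Of 12606 other genes with a mean log2 CPM of at least 1, the 5 whose pattern over the 16 libraries was most like the mean of the members were cyb5b (r = 0.82), wisp1b (r = 0.82, ccn4b in RefSeq), LOC100332446 (r = 0.81), LOC557537 (r = 0.77) and LOC100332177 (r = 0.77, cflarb in RefSeq). They were picked as the highest of 12606 values of r over 16 libraries, and no test of these r was made. cyb5b encodes a cytochrome b5, and wisp1b a secreted matricellular protein of the CCN family. The mean is weighted to nr4a1 by its spread, and against the mean of the 9 genes without it these r were 0.81, 0.68, 0.75, 0.51 and 0.70. The sixth gene, socs3a, a feedback inhibitor of cytokine signalling that is itself an immediate early gene, had r = 0.73 with the mean of 10 and r = 0.83 with the mean of 9, and was picked out after its value was seen.

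The rest of the pathway was read from 5 lists with 108 genes in all: other AP-1 subunits, other Egr and Nr4a genes, other immediate early genes, other feedback phosphatases, and the kinases and transcription factors upstream. None of those tested passed after adjustment (0 of 90, 92, 91 and 97 genes in PNX-20, A8535 and PT-91 against Control and PT-91 against A8535, by edgeR). At an unadjusted p under 0.05, there were 0, 3, 4 and 0 of them, all with log2 fold changes above 0, against the 2.51, 2.48, 6.81 and 2.26% of all genes given before. These counts were not stable: over the alternatives they ran between 0 and 2 with PNX-20, 2 and 6 with A8535, 0 and 7 with PT-91 and 0 and 7 between the agonists. The medians of the 9 other AP-1 genes tested were 0.18 under PNX-20, 0.80 under A8535 and 0.19 under PT-91, with 5, 8 and 7 of the 9 above 0. For the 7 other Egr and Nr4a genes they were -0.42, -0.31 and -0.13, with 2, 1 and 3 of the 7 above 0. Against Control, the medians of the other 3 lists ran between -0.20 and 0.29. Over all 5 lists the medians were -0.02, 0.16 and 0.05, with 44 of 90, 57 of 92 and 51 of 91 genes above 0. Among all genes 48.6, 46.4 and 50.2% were above 0, and the lists were not tested as sets.

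With A8535 the 3 genes were mknk2b, sik1 and mrtfba. mknk2b encodes a kinase downstream of the mitogen-activated protein kinases and read 214, 187, 243 and 158 CPM with A8535, against 134, 84.4, 51.1 and 92.2 CPM in Control, groups that did not overlap (log2 fold change 1.15, SE 0.31, unadjusted p = 0.00409, adjusted p = 0.999 in edgeR). sik1, a kinase gene induced by cAMP, did not overlap either, with 27.2, 18.4, 35.3 and 19.6 CPM against 9.82, 13.9, 5.16 and 12.3 CPM (log2 fold change 1.29, SE 0.41, adjusted p = 0.999). Groups apart in this way were 2% of all genes in this comparison. mrtfba, a coactivator of serum response factor, averaged 14.6 ± 5.94 CPM with A8535 and 5.84 ± 3.36 CPM in Control (SD, n = 4 each).

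With PT-91 the 4 genes were batf3, fosl1b, hbegfb and dusp4, each at an adjusted p of 0.712 in edgeR. The count of such genes was 0 without PT-91 replicate 1 and also under limma-voom, 2 without PT-91 replicate 2 or Control replicate 3, and 7 without Control replicate 2. batf3, an AP-1 type factor, split the PT-91 group, with 122 and 141 CPM in replicates 1 and 2 and 25.3 and 25.7 CPM in replicates 3 and 4, against 21.9, 25.8, 9.64 and 33.9 CPM in Control (log2 fold change 1.84, SE 0.64). dusp4, a relative of dusp1, had 14.2, 0.222, 2.71 and 1.32 CPM against 0.991, 1.20, 0.779 and 0.357 CPM, so that its log2 fold change of 2.46 (SE 1.06) came mainly from replicate 1, and dusp4 also has a row on an alternate scaffold. fosl1b, a Fos relative, was in low counts, with 1.28 to 8.68 CPM against 0.195 to 1.12 CPM (log2 fold change 2.43, SE 0.85), and its groups did not overlap, as for 2.73% of all genes in this comparison. hbegfb, a growth factor of the EGF family, averaged 32.7 ± 12.5 CPM with PT-91 and 17.5 ± 4.76 CPM in Control (log2 fold change 0.96, SE 0.39). PT-91 replicate 1 was the highest of its group for fosl1b, hbegfb and dusp4, and replicates 1 and 2 were the high ones for batf3. These 2 libraries had mitochondrial shares of 4.08 and 3.98% with 19706 and 19656 genes detected, while replicates 3 and 4 had 0.792 and 1.13% with 22243 and 23474 genes, and the part of either measure in these values was not tested.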

How the data were processed

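Per the labels and the study's methods, RNA was poly(A)-selected, made into directional libraries and sequenced, and the authors trimmed reads with fastp, aligned them with HISAT2 2.0.5 to GRCz11 and assigned them to genes with featureCounts 1.5.0-p3. The 3 deposited tables, 1 per treatment with the shared Control libraries (28089, 28228 and 28009 genes), hold raw counts, which were used. The authors also deposited FPKM values, size-factor normalised signal values and, from their own DESeq2 comparisons, log2 fold changes and p-values, which were not used. Each treatment was compared with Control on the 8 libraries of its table with edgeR 4.0.16 (R 4.3.3; TMM scaling, filterByExpr, robust quasi-likelihood F test, Benjamini-Hochberg adjustment over all genes tested). PT-91 was compared with A8535 on all 16 libraries over the 26910 genes in the 3 tables (19216 kept). CPM use TMM scaling over 16 libraries, and log2 CPM a prior count of 2. Exact permutation tests are two-sided, and correlation p-values come from 100000 resamples. The main edgeR fit was tested on simulated counts.

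Alternatives were RLE and upper quartile scaling, no filter, a filter of 1 CPM in 4 libraries, DESeq2 1.42.0, limma-voom (limma 3.58.1), a fit of all 16 libraries (for PT-91 against A8535, of their 8), summed copies, a replicate block and leaving out each library. By the study's design the sections of a fish went to different treatments, so libraries of 1 group should come from separate fish. The labels do not state this, nor which libraries of different groups share a fish. The p-values of the main fits set each difference against the spread between libraries and leave such sharing out. The members and lists were chosen with earlier results of these data known. Named from the wider lists were, per comparison, the genes at an unadjusted p under 0.05 with the smallest p, at most 4 per list, and by likeness the 5 genes with the highest r; the 2 most abundant genes of a marker list represent it. Depth sets the counting error of low levels such as those of the nr4a1 scaffold row, with 0 to 78 reads per library. Promoter and protein sequences were not used here.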

Additional observations from a re-analysis of the deposited data

Results flagged for a closer look

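In 48 groups of 4 libraries, 1 held a library far from the other 3. The atf3 level of Control replicate 3 was 22.4 CPM, and the other Control libraries had 46.2 to 53.1 CPM. The gap to its nearest neighbour made up 0.837 of the range of the group on the log2 scale, just above the 95% critical value of Dixon's test for 4 samples. Chance flags about 1 in 20 groups. The same library was also the lowest of all 16 for 4 of the 10 genes.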

How the results depend on the processing

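No member passed after adjustment in any of 72 fits, so no adjusted call depended on the processing. At an unadjusted p under 0.05, the number of members was 2 in PT-91 against Control in one fit of all 16 libraries (dusp1 and atf3), against 1 in the pairwise fit. When each library was left out in turn, it ranged between 0 and 1 in each of the 4 comparisons. The 1 was dusp1 with PNX-20 (without Control replicate 1 or PNX-20 replicate 4) and with A8535 (without Control replicate 1), and fosb between the agonists (without PT-91 replicate 4), and the 0 with PT-91 came without Control replicate 4. These counts leave out the scaffold rows. For that of nr4a1, PT-91 against Control gave an unadjusted p of 0.0577 in edgeR and 0.0293 in DESeq2. Without PT-91 replicate 3 the edgeR p before adjustment was 0.00759 (adjusted p of 0.6), and 0.0153 against A8535 (adjusted p of 0.899). Of 48 log2 fold changes (12 rows in 4 comparisons), 23 kept their direction under every alternative, 24 changed sign when a library was left out and 10 under another setting. With a library left out, those of PNX-20 ran from -0.973 to 0.102 for egr1, -0.626 to 0.992 for its scaffold row, -0.172 to 0.383 for ier2a, -0.21 to 0.391 for ier2b, -0.047 to 0.672 for junbb, -0.649 to 0.593 for nr4a1 and -1.3 to 0.291 for its scaffold row. Those of A8535 were -0.124 to 0.277 for fosab, -0.868 to 0.135 for egr1, -0.373 to 0.176 for ier2a, -0.254 to 0.299 for junbb, -1.63 to 0.0177 for nr4a1 and -1.34 to 0.225 for its scaffold row. For PT-91 they were -0.353 to 0.077 for fosab, -0.397 to 0.249 for fosb, -0.704 to 0.306 for egr1, -0.109 to 0.458 for junbb and -0.635 to 0.505 for nr4a1. For PT-91 against A8535 they were -0.108 to 0.341 for egr1, -0.183 to 0.432 for atf3, -0.187 to 0.0213 for ier2b, -0.475 to 0.153 for junba, -0.121 to 0.349 for junbb and -0.158 to 1.44 for nr4a1. Other settings turned the PNX-20 value of the egr1 scaffold row to 0.00228 (RLE scaling), 0.00227 (DESeq2) and 0.0369 (difference of mean log2 CPM, as in the permutation test), and that of nr4a1 to -0.000359 (upper quartile scaling), -0.0183 (no filter), -0.473 (limma-voom), -0.00129 (one fit of 16 libraries), -0.0815 (rows summed) and -0.354 (difference of mean log2 CPM). The difference of mean log2 CPM also turned fosab with A8535 (-0.0287), ier2a with A8535 (0.0579) and fosb with PT-91 (0.0404), and summed rows turned egr1 with PT-91 (0.0142). Under limma-voom, ier2a with A8535 was 0.00443, and between PT-91 and A8535 egr1 was -0.475, its scaffold row -0.25, junbb -0.0737 and nr4a1 -0.9. The cause was not tested. For the wider lists, the count at an unadjusted p under 0.05 was 6 with DESeq2 for A8535 (3 in the pairwise fit) and 7 without PT-91 replicate 4 between the agonists (0 with all libraries).

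In no comparison did all same-numbered libraries deviate together (r between -0.285 and 0.583, over 0.1 in 6 of 16 pairs, and highest with the own number in 6 of 16), so the numbers were not used as pairs. Between PT-91 and A8535, replicates 2, 3 and 4 did (r = 0.261, 0.459 and 0.583, each highest with its own number) and replicate 1 did not (r = -0.0341), a hint from the data only. Some libraries deviated together with a Control library of another number: A8535 replicates 1 (r = 0.56) and 4 (r = 0.617) and PT-91 replicate 4 (r = 0.594). Whether these share a fish is not given, and the fits do not account for it. The libraries of PNX-20 were not set against those of the agonists in this way. With the replicate number as a block, genes at an unadjusted p under 0.05 numbered 271, 223, 769 and 436, against 430, 431, 1177 and 435 without it. Between the agonists the block was fitted over all 16 libraries, so it also tied PNX-20 and Control libraries by number. That fit cannot show what pairing the agonist libraries alone would do. The block left the members at 0, 0, 1 and 0, with dusp1 in PT-91 at 1.15 (adjusted p of 0.933 in edgeR, and 0.0268 before adjustment), and turned the log2 fold changes of the egr1 scaffold row with PNX-20 (0.0223), fosab (-0.0233) and ier2a (0.0674) with A8535, fosb with PT-91 (0.0957) and egr1 between the agonists (-0.107).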
